A study of Mus musculus with 12 samples.

Results

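The genes described here are 43 genes of mitotic entry and exit, chosen by name from a list of regulators and effectors of mitosis and kept where their mean deposited count over the 12 libraries was at least 10. All 43 listed genes met the rule, among 19336 loci that carry a gene name, and all 43 were among the 15656 genes tested. The rule reads the name and the mean count of a gene and not its levels by condition, but the list was drawn up with earlier results of these data known. RNA was sequenced from hippocampal cultures of wild-type (WT) mice taken at postnatal day 4. The 4 conditions were 20 µM DAPT, DAPT together with 20 nM soluble ErbB4 (sErbB4), 20 nM sErbB4 alone, and vehicle, with 3 libraries each. DAPT blocks γ-secretase, the protease that frees the intracellular domains of Nrg1 and of Notch receptors, among other substrates. sErbB4 is the recombinant ectodomain of the receptor ErbB4, which binds Nrg1 on the neuronal surface, and was given for 4 h. The sources give different times for the start and length of the DAPT pretreatment. By their labels, the groups DAPT and vehicle differed in the inhibitor, as did the groups DAPT + sErbB4 and sErbB4. All cultures were WT, and the study describes the libraries of a condition as separate platings from several mice and litters, so p-values measure the spread between platings.

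Cells enter mitosis when CDK1, bound to cyclin A or cyclin B, is activated, and they leave it when the anaphase-promoting complex (APC/C) marks cyclin B and securin for destruction. Most of these genes are transcribed in a wave in the G2 and M phases. The wave is driven by the MuvB core with B-MYB and FOXM1 at a promoter element called the cell cycle genes homology region (CHR) and by NF-Y at CCAAT boxes, and in resting cells the DREAM complex, which holds the same MuvB core, represses these genes. Postmitotic neurons do not divide, whereas radial glia, neural progenitors, oligodendrocyte precursors and astrocytes in a postnatal hippocampal culture can.

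Promoter sequences are shown because the members share motifs that the list did not use. RefSeq windows of 300 bases (250 before and 50 after the annotated start, GRCm38.p6, which is mm10) were matched for 34 of the 43 members, 36 windows in all. The CHR was searched as TTTGAA or TTCGAA and the CCAAT box as CCAAT, both on either strand, and a run that holds CCAAT on each strand was counted on each. A CHR was present in 28 member windows (77.8%), against 19.2% of the 32851 windows of all promoters. A CCAAT box was present in 80.6% of member windows and 37.4% of all windows, and 2 or more CCAAT boxes in 55.6% and 11.7%. Both motifs stood in the same window for 75.0% of member windows and 7.52% of all windows. An E2F motif was searched on either strand in the form TTCCCGC, in a variant with the letters TTGGCGC, in another with the letters TTGCCGC and in a last one with the letters TTCGCGC, and was in 25.0% of member windows and 9.57% of all windows. The stretches below run 150 bases, with position 0 at the annotated start, and capitals mark CHR and CCAAT matches on either strand. The first 6 belong to the members with both motifs and the highest mean level, and Ccnb2 and Cdk1 were added after the matches were seen, because they encode a mitotic cyclin and its kinase.
Ncapd2 promoter, chr6:125191567-125191716, minus strand: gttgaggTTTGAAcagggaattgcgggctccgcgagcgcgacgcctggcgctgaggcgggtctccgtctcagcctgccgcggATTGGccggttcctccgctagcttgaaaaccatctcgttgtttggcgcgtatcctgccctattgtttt
Racgap1 promoter, chr15:99651637-99651786, minus strand: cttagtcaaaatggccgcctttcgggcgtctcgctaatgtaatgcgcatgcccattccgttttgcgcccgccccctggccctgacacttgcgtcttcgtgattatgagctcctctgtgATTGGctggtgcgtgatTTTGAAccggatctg
Ube2c promoter, chr2:164769799-164769948, plus strand: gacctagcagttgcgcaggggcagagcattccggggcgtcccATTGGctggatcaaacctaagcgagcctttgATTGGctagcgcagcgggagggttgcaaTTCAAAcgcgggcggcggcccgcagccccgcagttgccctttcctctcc
Top2a promoter, chr11:99024170-99024319, minus strand: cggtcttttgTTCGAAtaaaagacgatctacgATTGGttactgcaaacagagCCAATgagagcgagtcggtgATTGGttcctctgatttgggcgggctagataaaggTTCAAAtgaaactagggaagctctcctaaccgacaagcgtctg
Ckap2 promoter, chr8:22185800-22185949, minus strand: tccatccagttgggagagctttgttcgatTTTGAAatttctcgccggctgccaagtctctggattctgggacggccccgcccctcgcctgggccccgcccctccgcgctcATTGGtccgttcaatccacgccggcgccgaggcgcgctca
Prc1 promoter, chr7:80294321-80294470, plus strand: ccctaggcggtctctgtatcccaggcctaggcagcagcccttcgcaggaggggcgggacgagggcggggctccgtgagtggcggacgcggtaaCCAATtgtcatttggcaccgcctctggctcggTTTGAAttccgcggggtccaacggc
Ccnb2 promoter, chr9:70421535-70421684, minus strand: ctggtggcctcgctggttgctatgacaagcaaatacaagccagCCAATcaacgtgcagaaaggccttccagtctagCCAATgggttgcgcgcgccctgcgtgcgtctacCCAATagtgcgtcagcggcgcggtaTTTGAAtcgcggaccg
Cdk1 promoter, chr10:69352893-69353042, minus strand: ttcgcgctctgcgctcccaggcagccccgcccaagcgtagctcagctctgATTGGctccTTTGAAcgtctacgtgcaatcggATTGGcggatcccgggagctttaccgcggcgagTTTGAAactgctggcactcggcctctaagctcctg
In the Ccnb2 stretch the 3 CCAAT boxes start at -87, -54 and -21, which is a spacing of 33 bases each, and a CHR starts at 4. Prc1 has a CCAAT box and a CHR whose starts lie 32 bases apart, at -37 and -5. In Ube2c the CHR starts at -29, and the nearest CCAAT box lies 28 bases upstream of it. Top2a holds 4 CHR and 6 CCAAT matches in its whole window. Racgap1 has its single CCAAT box at -12 and its CHR at 5. Of 40 CHR matches in member windows, 27 lay within 50 bases of the annotated start. Prc1 and Ect2 have overlapping windows, and their matches are counted in each window. In 8 of the 36 windows (7 genes, including Ncapd2 and Pttg1), the annotated start lay more than 100 bases inside the gene's RefSeq span. These windows are not at the 5′ end of that span. The distance was 514 bases for Ncapd2. A match describes letters in a window and is not a measured binding site.

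Levels are given as CPM, counts per 1000000 counts on named loci, computed from the deposited estimated counts with TMM-scaled library sizes (edgeR). Library totals were 36518802 to 54350270 counts, of which 18697788 to 30777171 lay on named loci, and Rn45s alone took 31.4 to 44.6% of the named counts. Replicates of a condition correlated at r of 0.984 to 0.991 on the log2 scale. Among the libraries, 2 stood apart from their conditions on the second principal component, sErbB4 replicate 1 at -30.0 and Vehicle replicate 3 at -13.9, against -1.37 to 12.1 for the other 10. Calls of members without both libraries, chosen after seeing the data, were 40 in DAPT against vehicle and 42 in DAPT + sErbB4 against sErbB4. The cultures are labelled neuronal, and the neuronal markers Tubb3, Map2, Snap25, Syt1 and Rbfox3 were present with a summed level of 714 to 880 CPM over the 12 libraries. Markers of astrocytes, radial glia and oligodendrocyte precursors were present as well, and endothelial markers (summed 3.17 to 4.96 CPM) and microglial markers (14.4 to 19.2 CPM) were low.

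Mitotic genes were lower with DAPT than without it, whether sErbB4 was present or not. Calls needed an adjusted p below 0.05 in edgeR's quasi-likelihood test, with Benjamini-Hochberg adjustment over all genes tested, and an absolute log2 fold change above 0.32. In DAPT against vehicle, 41 of 43 members were called lower and none higher, while 6.92% of all genes tested were called lower. Their median log2 fold change was -1.26, a level in DAPT of 0.417 times that in vehicle, and the median over all genes was 0.01. In DAPT + sErbB4 against sErbB4, 42 of 43 members were called lower and none higher, against 7.15% of all genes called lower, with a median of -1.19. Averaged over both settings of sErbB4 (the mean DAPT effect), 42 members were called lower, against 7.7% of all genes. The members not called were Pttg1 and Smc4 in the first comparison, Cdc25c in the second and Pttg1 for the mean effect.

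The libraries separated almost completely. All 3 DAPT libraries lay below all 3 vehicle libraries for 42 of 43 members, a pattern that 21.1% of all genes showed. All 3 DAPT + sErbB4 libraries lay below all 3 sErbB4 libraries for 43 of 43 members, against 19.9% of all genes. Summed over the 43 members, the level was 182, 186 and 190 CPM in DAPT and 363, 371 and 403 CPM in vehicle. It was 172, 176 and 179 CPM in DAPT + sErbB4, against 345, 360 and 379 CPM in sErbB4. The sums of the groups with DAPT did not overlap those of the groups without it. In these bulk samples, fewer dividing cells and less mitotic RNA per dividing cell cannot be told apart.

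**Figure D1:**
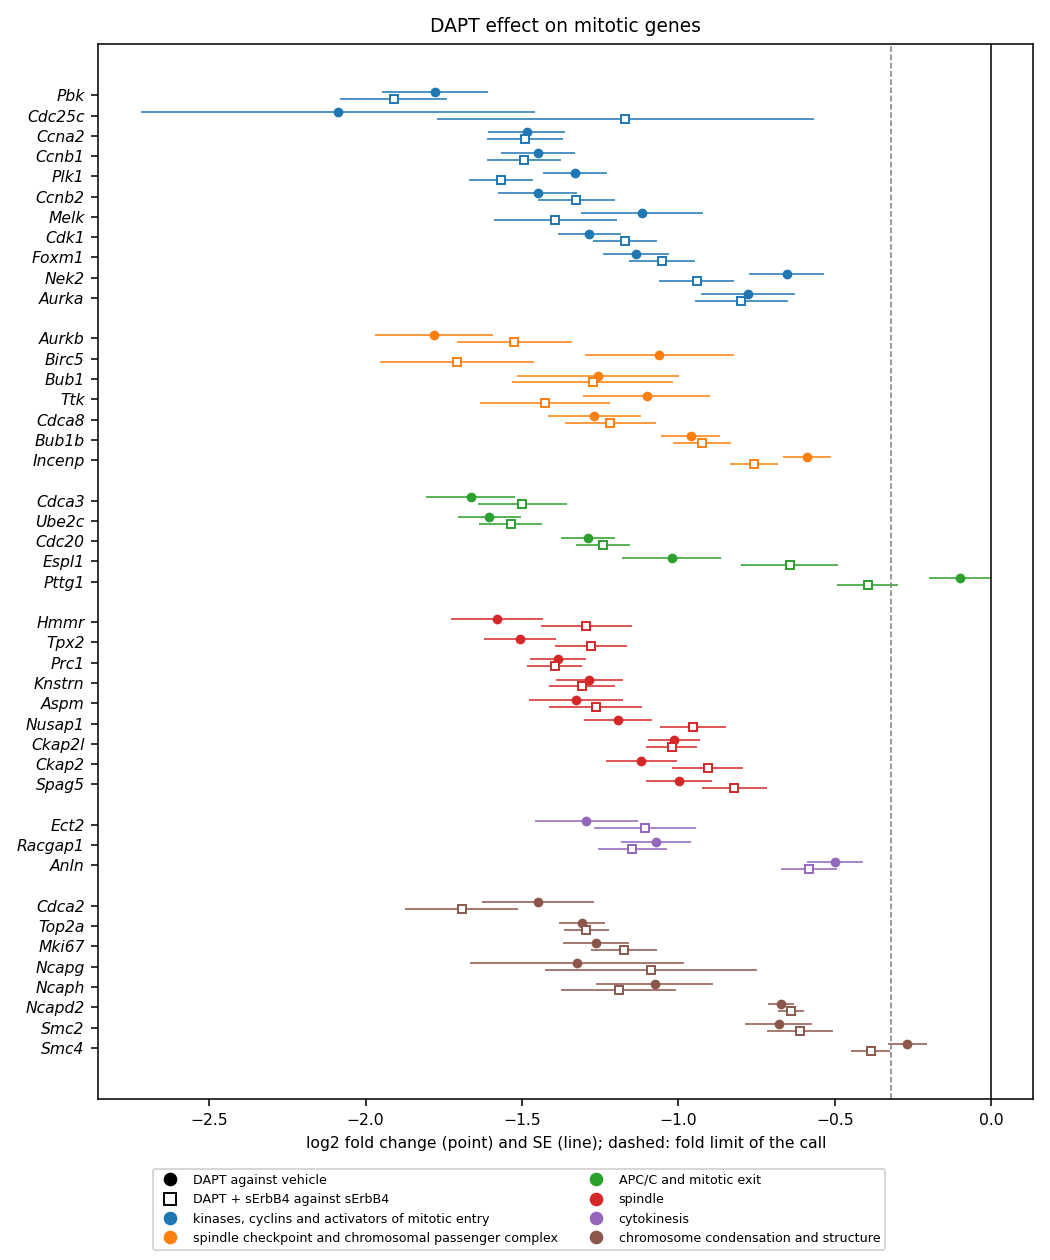
Log2 fold changes of the 43 members, grouped by role, in DAPT against vehicle (filled circles) and in DAPT + sErbB4 against sErbB4 (open squares), with lines of 1 SE and a dashed line at the limit of -0.32. Every point lies below 0, and Pttg1 and Smc4 in DAPT against vehicle are the points that lie to the right of the dashed line.

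The kinases, cyclins and activators that start mitosis had the lowest median of the 6 roles in both comparisons. All 11 were called lower in DAPT against vehicle (median log2 fold change -1.33, adjusted p of 4.4e-06 to 0.032, edgeR) and 10 of 11 in DAPT + sErbB4 against sErbB4 (median -1.33). Cdk1, the kinase that drives mitotic entry, fell by 1.29 on the log2 scale in DAPT against vehicle and by 1.17 in DAPT + sErbB4 against sErbB4. Its cyclin partners moved alike, with -1.49 and -1.49 for Ccna2, -1.45 and -1.49 for Ccnb1, and -1.45 and -1.33 for Ccnb2. Plk1, the polo-like kinase of spindle assembly and mitotic entry, had -1.33 and -1.57, and Melk, a kinase of proliferating progenitors, had -1.12 and -1.39. Foxm1, the transcription factor of the G2 and M wave, had -1.14 and -1.05. The centrosomal kinases had smaller values, -0.78 and -0.80 for Aurka, and -0.65 and -0.94 for Nek2.

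Ccnb1 encodes cyclin B1, the best-known partner of CDK1. Its level was 4.87, 4.20 and 5.36 CPM in DAPT and 13.3, 14.6 and 11.8 CPM in vehicle. With sErbB4 it was 3.57, 4.85 and 4.59 CPM in DAPT + sErbB4, against 11.7, 13.2 and 11.9 CPM in sErbB4. The groups with and without DAPT stood well apart, and the fold changes had an SE of 0.12 each (adjusted p = 6.9e-06 and 5e-06, edgeR). Pbk, a mitotic kinase also known as TOPK that is expressed in neural progenitors, had the largest mean DAPT effect of all members. It was at 3.74, 3.04 and 3.53 CPM in DAPT and 10.2, 11.8 and 13.7 CPM in vehicle. The libraries with sErbB4 gave 2.44, 3.04 and 3.34 CPM in DAPT + sErbB4 and 8.78, 13.2 and 11.3 CPM in sErbB4. The log2 fold changes of Pbk were -1.78 (SE 0.17, adjusted p = 2.1e-05, edgeR) and -1.91 (SE 0.17, adjusted p = 1.2e-05, edgeR), and its mean DAPT effect had a 95% interval of -2.12 to -1.57.

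Cdc25c, the phosphatase that removes the inhibitory phosphates from CDK1, had the widest error of all members. It was listed at 0 in DAPT replicate 1 and was at 0.849 and 0.784 CPM in DAPT replicates 2 and 3, against 2.04, 2.14 and 2.82 CPM in vehicle. It was at 0.913, 0.579 and 0.960 CPM in DAPT + sErbB4 and 2.05, 1.76 and 1.72 CPM in sErbB4. Neither pair of groups overlapped. The fold change was -2.09 in DAPT against vehicle (SE 0.63, adjusted p = 0.032, edgeR) and -1.17 in DAPT + sErbB4 against sErbB4 (SE 0.60, adjusted p = 0.19, edgeR), so that the second did not pass the test. The first call was lost without any 1 of the vehicle libraries (log2 fold changes of -2.18, -2.14 and -1.93 without replicates 1, 2 and 3), and also in a fit of the DAPT and vehicle libraries alone (-2.09). The second passed without DAPT replicate 1 (-1.17), in a fit of the DAPT + sErbB4 and sErbB4 libraries alone (-1.17) and with limma on log2(CPM + 2) (-0.47).

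**Figure D2:**
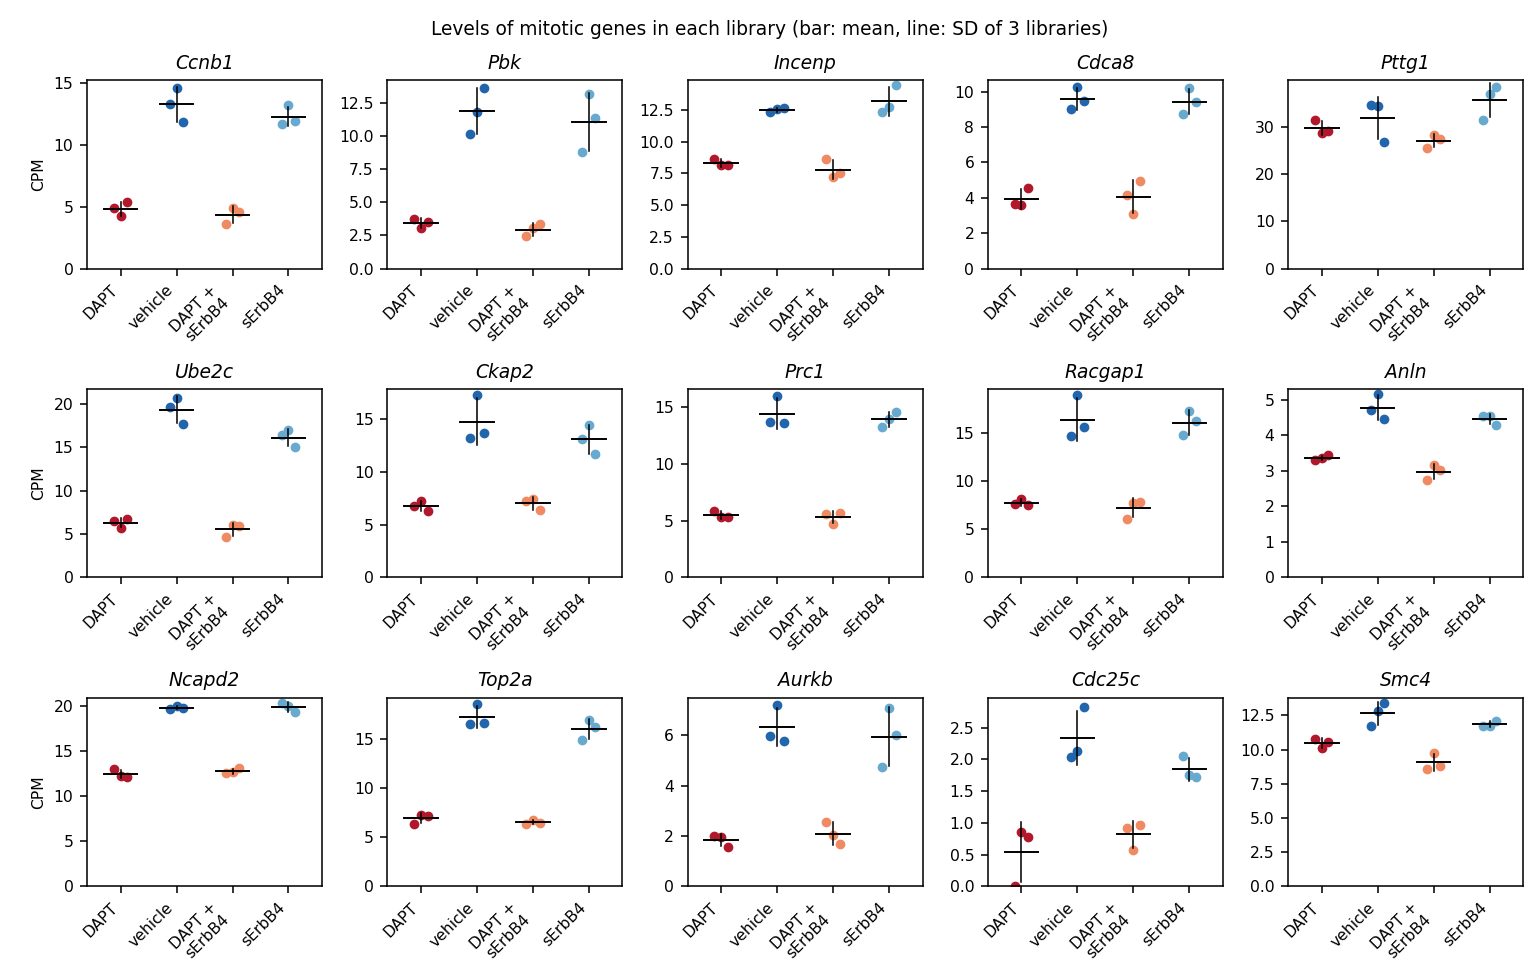
CPM in each of the 3 libraries per condition for the 2 members of highest level in each role and for the members with the 3 largest and 3 smallest mean DAPT effects, with the mean (bar) and SD (line), and axes that start at 0. DAPT stands left of vehicle and DAPT + sErbB4 left of sErbB4, and in the Pttg1 panel alone the DAPT and vehicle libraries overlap.

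The spindle checkpoint and the chromosomal passenger complex, which hold back anaphase until chromosomes are attached, were lower as a group. All 7 genes were called in both comparisons, with medians of -1.10 and -1.27. The checkpoint kinases had -1.26 and -1.27 (Bub1), -0.96 and -0.92 (Bub1b), and -1.10 and -1.43 (Ttk). In the passenger complex, Aurkb, its kinase, had -1.78 and -1.52. Birc5, which encodes survivin, had -1.06 and -1.71, Cdca8 (borealin) -1.27 and -1.22, and Incenp, the scaffold, -0.59 and -0.76. The spread within the complex was thus wide, with Aurkb among the 3 largest mean effects of all members and Incenp with a smaller effect than the members' median.

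Aurkb was at 1.99, 1.97 and 1.57 CPM in DAPT and 5.99, 7.19 and 5.78 CPM in vehicle. It was at 2.57, 2.03 and 1.67 CPM in DAPT + sErbB4, against 4.75, 7.09 and 6.01 CPM in sErbB4. Every library with DAPT was below every library without it (adjusted p = 4.7e-05 and 0.00011, edgeR). Cdca8 was at 3.67, 3.58 and 4.57 CPM in DAPT and 9.00, 10.3 and 9.47 CPM in vehicle. It was at 4.17, 3.08 and 4.94 CPM in DAPT + sErbB4 and 8.73, 10.2 and 9.41 CPM in sErbB4, again without overlap. Incenp kept more of its level, with 8.66, 8.13 and 8.17 CPM in DAPT and 12.3, 12.6 and 12.7 CPM in vehicle. It had 8.65, 7.20 and 7.54 CPM in DAPT + sErbB4, against 12.4, 12.7 and 14.5 CPM in sErbB4. The Incenp libraries did not overlap either, and the smaller fall was called in both comparisons (SE 0.08 each, adjusted p = 0.00023 and 2.8e-05, edgeR).

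The genes of the APC/C and of mitotic exit held large falls and, in Pttg1, the smallest fall of all members in DAPT against vehicle and in the mean DAPT effect. In DAPT + sErbB4 against sErbB4 the smallest was that of Smc4. Cdc20, the APC/C activator, had -1.29 and -1.24, Ube2c, the ubiquitin-conjugating enzyme of the APC/C, had -1.60 and -1.54, and Cdca3, which promotes the destruction of the CDK1 inhibitor WEE1, had -1.66 and -1.50. Espl1, the separase that cuts cohesin at anaphase, had -1.02 and -0.64. Pttg1, the securin that holds separase inactive, had -0.10 and -0.40. Ube2c was at 6.55, 5.68 and 6.70 CPM in DAPT and 19.6, 20.7 and 17.6 CPM in vehicle. It was at 4.61, 6.05 and 5.90 CPM in DAPT + sErbB4, against 16.3, 16.9 and 15.0 CPM in sErbB4. The groups did not overlap, and the fitted level was 3.04-fold lower in DAPT than in vehicle (adjusted p = 9.1e-07, edgeR).

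Pttg1 differed from the other members of its group. It was at 31.5, 28.7 and 29.0 CPM in DAPT and 34.5, 34.3 and 26.8 CPM in vehicle, where the groups overlapped through Vehicle replicate 3 (SE 0.10, adjusted p = 0.52, edgeR). It was at 25.4, 28.2 and 27.4 CPM in DAPT + sErbB4 and 31.5, 36.8 and 38.3 CPM in sErbB4, without overlap, and was called there (SE 0.10, adjusted p = 0.011, edgeR). Its mean DAPT effect of -0.25 had a 95% interval of -0.41 to -0.09, which does not reach that of Top2a or Pbk. The difference between its effects with and without sErbB4 was -0.30 (SE 0.14, adjusted p = 1, edgeR) and did not pass the test. The RefSeq window of Pttg1 held neither motif, but its start lies 1482 bases inside the gene's RefSeq span. That window is thus not at the 5′ end of the span.

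All 9 spindle genes were called lower in both comparisons (medians of -1.29 and -1.26), and 8 of the 9 had a log2 fold change under -1 in DAPT against vehicle. Tpx2, which activates Aurora A on the spindle, had -1.51 and -1.28, and Hmmr, a microtubule-binding partner of it, had -1.58 and -1.29. Aspm, the spindle pole gene linked to microcephaly, had -1.33 and -1.26. Nusap1, which bundles spindle microtubules, had -1.19 and -0.95, and the kinetochore-microtubule adaptors Knstrn and Spag5 had -1.29 and -1.31, and -0.999 and -0.82. Ckap2l had -1.01 and -1.02. Ckap2, a microtubule-stabilizing protein, was at 6.75, 7.24 and 6.30 CPM in DAPT and 13.2, 17.2 and 13.7 CPM in vehicle. It was at 7.26, 7.38 and 6.33 CPM in DAPT + sErbB4, against 13.1, 14.4 and 11.7 CPM in sErbB4, with fold changes of -1.12 and -0.91 (SE 0.11 each). No library with DAPT reached the level of any without it. Prc1, which crosslinks the microtubules of the central spindle, was at 5.89, 5.32 and 5.32 CPM in DAPT and 13.7, 16.0 and 13.6 CPM in vehicle. It was at 5.57, 4.67 and 5.66 CPM in DAPT + sErbB4, against 13.2, 13.9 and 14.6 CPM in sErbB4. Its fold changes of -1.38 and -1.40 (SE 0.09 each, adjusted p = 1.1e-06 and 9.4e-07, edgeR) were alike in both comparisons.

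The 3 genes of cytokinesis were called in both comparisons. Ect2, the exchange factor that activates RhoA at the cleavage furrow, had -1.29 and -1.11. Racgap1, its partner at the central spindle, was at 7.64, 8.13 and 7.51 CPM in DAPT and 14.7, 18.9 and 15.6 CPM in vehicle. It was at 6.09, 7.71 and 7.86 CPM in DAPT + sErbB4, against 14.7, 17.2 and 16.2 CPM in sErbB4, with fold changes of -1.07 and -1.15 (SE 0.11 each). Anln, which encodes the furrow scaffold anillin and is also expressed by myelinating oligodendrocytes, was among the 3 members with the smallest mean DAPT effect. It was at 3.31, 3.35 and 3.43 CPM in DAPT and 4.70, 5.17 and 4.46 CPM in vehicle. It was at 2.74, 3.15 and 3.02 CPM in DAPT + sErbB4, against 4.55, 4.53 and 4.29 CPM in sErbB4. The groups did not overlap, and the fold changes were -0.50 and -0.58 (SE 0.09 each, adjusted p = 0.0018 and 6e-04, edgeR).

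The genes of chromosome condensation and structure split by size of effect. Mki67, which coats mitotic chromosomes and is the gene of the proliferation marker Ki67, had -1.26 and -1.17, and Cdca2, a phosphatase-targeting subunit at chromosomes, had -1.45 and -1.69. Of the condensin I subunits, Ncapg had -1.32 and -1.09, and Ncaph had -1.08 and -1.19. Ncapd2, Smc2 and Smc4 moved less, with -0.67 and -0.64 for Ncapd2, -0.68 and -0.61 for Smc2, and -0.27 and -0.39 for Smc4. Smc2 and Smc4 are shared by condensin I and condensin II, and Ncapd2 belongs to condensin I. The Ncapg calls (SE 0.34 each) were the least stable of the group and were lost in DAPT against vehicle without Vehicle replicate 2 (-1.16) or DAPT replicate 1 (-1.16). They were lost in DAPT + sErbB4 against sErbB4 without sErbB4 replicate 2 (-1.02) or 3 (-0.93) and without DAPT + sErbB4 replicate 1 (-1.04) or 2 (-0.85). The same call was also lost in a fit of the DAPT + sErbB4 and sErbB4 libraries alone (-1.09).

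Top2a, topoisomerase IIα, was at 6.36, 7.29 and 7.19 CPM in DAPT and 16.5, 18.5 and 16.7 CPM in vehicle. It was at 6.35, 6.77 and 6.44 CPM in DAPT + sErbB4, against 14.9, 16.9 and 16.2 CPM in sErbB4. Its groups stood far apart, with fold changes of -1.31 and -1.29 (SE 0.07 each) and the smallest adjusted p of all members (3.5e-07 and 3.1e-07, edgeR). Ncapd2 was at 12.9, 12.2 and 12.1 CPM in DAPT and 19.6, 19.9 and 19.8 CPM in vehicle. It was at 12.5, 12.7 and 13.1 CPM in DAPT + sErbB4 and 20.3, 20.0 and 19.3 CPM in sErbB4. The fall was smaller than that of Top2a and as clearly separated (SE 0.04 each, adjusted p = 9.7e-07 and 1.1e-06, edgeR). Smc4 was at 10.8, 10.1 and 10.6 CPM in DAPT and 11.7, 12.8 and 13.4 CPM in vehicle, without overlap. Its adjusted p of 0.0095 (edgeR, SE 0.06) passed, but the log2 fold change of -0.27 did not reach the limit of 0.32, and without Vehicle replicate 1 it did (-0.324). With sErbB4, Smc4 was at 8.61, 9.77 and 8.82 CPM in DAPT + sErbB4 and 11.8, 11.7 and 12.1 CPM in sErbB4 and was called lower (adjusted p = 0.001, edgeR).

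The effects of DAPT without and with sErbB4 share no library and can be set side by side. Over the 43 genes, which do not count as replicates of each other, the log2 fold changes correlated at Pearson's r = 0.800 and Spearman's rho = 0.773, and the median absolute difference was 0.12. A larger fall without sErbB4 was seen for 23 members. The difference between the effects was called for 0 members (0 at an unadjusted p under 0.05 in edgeR, 1 in DESeq2, which called 0), against 0.00639% of all genes. The widest differences were 0.92 for Cdc25c (SE 0.87) and -0.65 for Birc5 (SE 0.34). The 95% interval lay between -0.32 and 0.32 for 4 members (Top2a, Prc1, Ncapd2 and Ckap2l), so that for the other 39 a difference of that size is not bounded by these libraries.

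**Figure D3:**
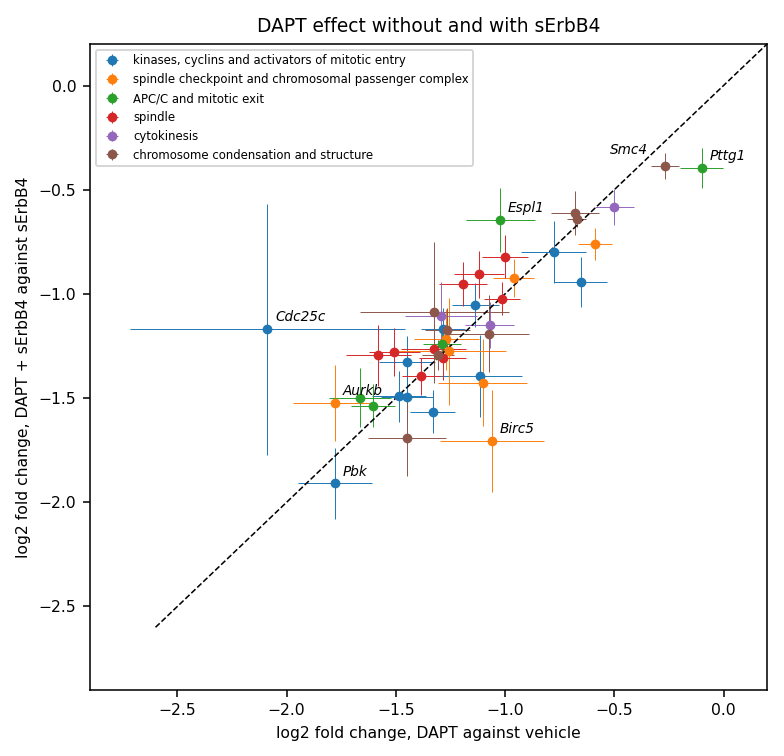
Log2 fold change of each member in DAPT against vehicle (x axis) and in DAPT + sErbB4 against sErbB4 (y axis), with lines of 1 SE, colours by role and a dashed line of equal effects. The points follow the dashed line (Pearson's r = 0.800 over 43 genes), with Cdc25c and Birc5 farthest from it and Pttg1 and Smc4 nearest to 0.

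The size of the fall varied between members. Log2 fold changes in DAPT against vehicle had an SD over members of 0.40, and the median coefficient of variation of CPM among replicates was 8.95% in DAPT, 9.26% in DAPT + sErbB4, 10.1% in sErbB4 and 9.13% in vehicle. Between the mean DAPT effect and the mean log2 CPM, which come from the same 12 libraries, Spearman's rho was 0.148 over the 43 members. The median mean effect was -1.22 for 26 members with a CHR match and -1.19 for 8 without, and -1.23 for 27 with a CCAAT match and -1.13 for 7 without. No test was run on these medians.

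No mitotic gene passed the test in response to sErbB4. In sErbB4 against vehicle, 0 of 43 members were called (2 at an unadjusted p under 0.05 in edgeR, Ube2c and Cdk1, and 0 called by DESeq2 or limma), against 0.0319% of all genes. The median was -0.09, with 34 members below 0 and 9 above, while 7966 of 15656 genes were below 0 and the median of all genes was -0.00. Cdk1 was at 4.31, 4.69 and 4.13 CPM in sErbB4 and 5.05, 5.84 and 5.05 CPM in vehicle, without overlap (log2 fold change -0.27, SE 0.09, adjusted p = 0.58, edgeR). Ube2c gave -0.26 (SE 0.09, adjusted p = 0.56, edgeR). In DAPT + sErbB4 against DAPT, 0 of 43 members were called, as 0% of all genes were (1 at an unadjusted p under 0.05 in edgeR, Smc4 at -0.21, SE 0.06, adjusted p = 0.39, and 0 members called by DESeq2 or limma). The median was -0.07, with 28 members below 0 and 15 above. The 95% interval lay between -0.32 and 0.32 for 14 members in sErbB4 against vehicle and for 10 in DAPT + sErbB4 against DAPT, among them Top2a, Ncapd2, Prc1, Incenp and Bub1b in both. For the rest, a change of that size is not bounded at this depth and number of libraries. These comparisons share their libraries with the comparisons of DAPT.

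Set against DAPT, the sErbB4 libraries repeated the contrast with vehicle. In sErbB4 against DAPT, 40 of 43 members were called higher, against 6.04% of all genes, with a median log2 fold change of 1.11. The exceptions were Smc4 (0.18, adjusted p = 0.066, edgeR), Pttg1 (0.26, adjusted p = 0.081, edgeR) and Cdc25c (1.75, adjusted p = 0.072, edgeR). This comparison shares its DAPT libraries with DAPT against vehicle and its sErbB4 libraries with DAPT + sErbB4 against sErbB4.

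Other genes of the cell cycle were lower in part. In a list of 27 other kinetochore genes, which link chromosomes to the spindle, 14 were called lower in DAPT against vehicle and 16 in DAPT + sErbB4 against sErbB4 (none higher, medians of -0.87 and -0.69). Its 3 genes of highest level, Bub3 (-0.20 and -0.16), Mis12 (-0.08 and -0.15) and Zw10 (0.01 and -0.00), were not called. In a list of 31 genes of S phase and replication, 15 and 21 were called lower (none higher, medians of -0.46 and -0.59). Of its 3 highest, Rrm2, the inducible subunit of ribonucleotide reductase, was called (-1.33 and -1.19), while the clamp Pcna (-0.32 and -0.27) and the helicase subunit Mcm7 (-0.30 and -0.14) were not. The medians of both lists lay between those of the members and those of all genes. Of all genes tested, 6.92% and 7.15% were called lower in these comparisons.

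Mitotic machinery that is commonly described as transcribed throughout the cycle gave smaller values. Of 28 such genes, among them APC/C subunits, cohesin and condensin II subunits, 2 were called lower in DAPT against vehicle (Ncapg2 and Mastl) and 1 in DAPT + sErbB4 against sErbB4 (Ncapg2), with medians of -0.06 and -0.04. Anapc13 (-0.02 and -0.18), Ensa (0.09 and 0.09) and Anapc5 (-0.04 and -0.00) were its genes of highest level. Of all genes tested, 6.92% and 7.15% were called lower in the same order, so these calls do not set the list apart. Among 19 regulators of the MuvB, Rb and E2F families, 3 were called lower in DAPT against vehicle (Mybl2, which encodes B-MYB, Rbl1, which encodes p107, and E2f5) and 2 in DAPT + sErbB4 against sErbB4 (Mybl2 and Rbl1). Their medians were -0.11 and -0.18. Rbbp4 (0.17 and -0.10), Tfdp1 (-0.07 and -0.03) and E2f4 (-0.29 and -0.20), the highest of that list, were not called. Of 12 CDK inhibitors and brakes on mitosis, Cdkn2c and Wee1 were called lower and Btg1, an antiproliferative factor, higher in DAPT against vehicle. In DAPT + sErbB4 against sErbB4, Cdkn1a, Cdkn1c, Cdkn2c and Pkmyt1 were called lower and Btg1 higher. The highest of these genes were Cdkn1a, which encodes p21 (-0.27 and -0.39), Cdkn1b (0.13 and 0.19) and Cdkn2d (-0.03 and -0.03). Genes of these last lists that were named for their calls were chosen after their values were seen. Among all 15656 genes tested, 730 and 712 were called higher in these comparisons. No test was run on the counts of these short lists. In promoter windows, a CHR match was found for 57.7% of kinetochore, 16.7% of S phase and 17.9% of phase-independent windows, and an E2F match for 26.9%, 66.7% and 25.0%.

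**Figure D4:**
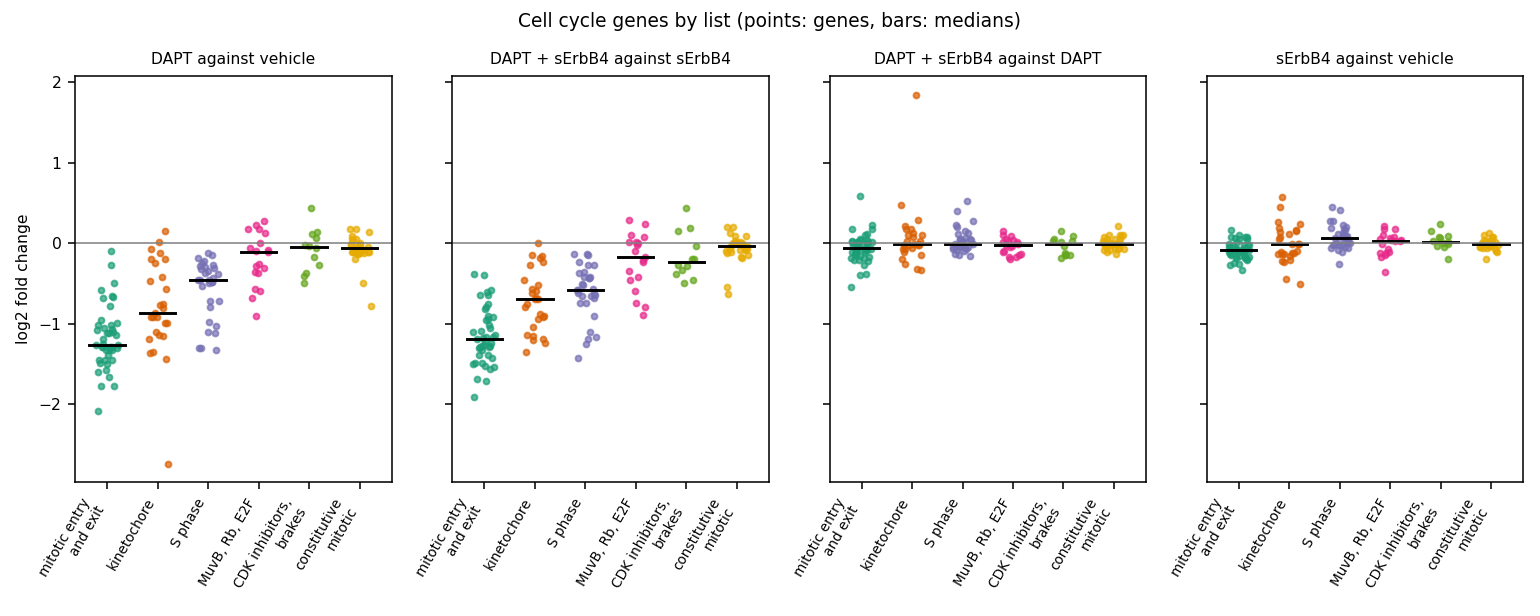
Log2 fold changes of single genes (points) and their medians (bars) for the 43 members and 5 other cell cycle lists in 4 comparisons. In both comparisons of DAPT the members lie lowest (medians of -1.26 and -1.19) and the phase-independent mitotic genes near 0 (-0.06 and -0.04), while in both comparisons of sErbB4 every list has its median near 0.

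Some markers of radial glia and most of oligodendrocyte precursors were lower with DAPT, while the summed astrocyte markers were higher through Gfap. The summed level of 6 radial glia and progenitor markers was 2127 to 2265 CPM in DAPT and 4040 to 4435 CPM in vehicle, and 1957 to 2048 CPM in DAPT + sErbB4 against 3771 to 4177 CPM in sErbB4. Of these 6, Fabp7, Nes and Hes5 were called lower in both comparisons, and Vim, Sox2 and Pax6 were not. The fall of the sum rested on Fabp7, as the other 5 markers summed to 1377 to 1478 CPM in DAPT and 1315 to 1385 CPM in vehicle, and to 1215 to 1275 CPM in DAPT + sErbB4 against 1146 to 1353 CPM in sErbB4. The sum of 5 oligodendrocyte precursor markers was 418 to 453 CPM in DAPT and 950 to 962 CPM in vehicle, and 404 to 419 CPM in DAPT + sErbB4 against 876 to 974 CPM in sErbB4. Olig1, Olig2, Pdgfra and Cspg4 were called lower in both and Sox10 in neither. Without Olig1, the highest of them, the other 4 summed to 149 to 161 CPM in DAPT and 246 to 251 CPM in vehicle, and to 141 to 144 CPM in DAPT + sErbB4 against 241 to 249 CPM in sErbB4. Fabp7 and Hes5 are also known targets of Notch signaling. The 5 astrocyte markers summed to 5719 to 6098 CPM in DAPT and 4976 to 5661 CPM in vehicle, and to 5386 to 5640 CPM in DAPT + sErbB4 against 4708 to 4909 CPM in sErbB4, with Aldh1l1 called lower in both. The higher sum rested on Gfap, as the other 4 summed to 907 to 960 CPM in DAPT and 1026 to 1135 CPM in vehicle. With sErbB4, these 4 summed to 875 to 902 CPM in DAPT + sErbB4 against 982 to 1011 CPM in sErbB4. The 5 neuronal markers summed to 777 to 822 CPM in DAPT and 714 to 757 CPM in vehicle, and to 840 to 880 CPM in DAPT + sErbB4 against 777 to 853 CPM in sErbB4. Without Tubb3, the highest of them, the other 4 summed to 447 to 457 CPM in DAPT and 348 to 388 CPM in vehicle. With sErbB4, these 4 summed to 484 to 499 CPM in DAPT + sErbB4 against 390 to 441 CPM in sErbB4. Tubb3 itself had a lower mean in DAPT (340 CPM) than in vehicle (372 CPM). Of the 5, 3 were called higher in DAPT against vehicle and 0 in DAPT + sErbB4 against sErbB4. Among all 15656 genes tested, 730 and 712 were called higher in the same order. The 5 markers of pericytes and fibroblasts summed to 80.1 to 86.6 CPM in DAPT and 95.0 to 102 CPM in vehicle, and to 69.7 to 78.1 CPM in DAPT + sErbB4 against 88.7 to 96.4 CPM in sErbB4. They were split, with 3 called lower and Dcn called higher in both comparisons. The mean of Dcn was 23.5 CPM in DAPT and 14.7 CPM in vehicle, and 21.1 CPM in DAPT + sErbB4 against 14.6 CPM in sErbB4. Of the 5 microglial markers, which were low, 1 was called lower in DAPT against vehicle and 2 in DAPT + sErbB4 against sErbB4, with 0 higher. Their sums overlapped in the first comparison, with 14.4 to 19.0 CPM in DAPT and 16.5 to 18.8 CPM in vehicle. Cx3cr1 had means of 1.48 CPM in DAPT and 3.29 CPM in vehicle. Of the 3 endothelial markers tested, 0 were called in either comparison. The part of these cell types in the fall of the mitotic genes was not tested.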

How the data were processed

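RNA was sequenced in 12 libraries, and per the labels and methods the authors used Trimmomatic, HISAT2 (mm10), StringTie and IsoformSwitchAnalyzeR, with no versions given. The deposited table holds estimated counts per gene that the authors took from the StringTie assembly, not normalized between libraries, and no value above 0 was whole. They were rounded and tested with edgeR 4.0.16 in R 4.3.3 (limma 3.58.1 and DESeq2 1.42.0 as alternatives). Loci without a gene name (1976 of 21312, 43.4 to 51.8% of a library) were left out. filterByExpr kept 15656 genes, TMM factors were 0.926 to 1.18, and the quasi-likelihood test used 1 model with 4 condition means and 8 residual degrees of freedom. The deposited counts were turned into CPM on TMM-scaled library sizes. The SE is the log2 fold change over the root of the F statistic. No columns of other samples were used.

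The members, lists and comparisons were chosen with earlier results of these data known. Named were all members, with levels by library for the 2 highest in CPM per role and the 3 largest and 3 smallest mean DAPT effects, and the 3 highest genes of each other list. Replicate numbers, which the labels do not tie to a plating or litter, were not taken to pair libraries: deviations of the 18 same-number pairs correlated at r of -0.645 to 0.576 (median 0.0305), with 8 pairs over 0.1. RefSeq promoter windows were searched by exact match. The statistical scripts were tested on simulated data. Alternatives covered normalization, test, filters, pseudocount, block, libraries in the fit, unnamed loci and Rn45s, with each library left out in turn.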

Additional observations from a re-analysis of the deposited data

How the results depend on the processing

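No member reversed its direction in DAPT against vehicle or in DAPT + sErbB4 against sErbB4 under any of the alternatives run. Of 1936 values of single members, 1920 kept their side of the threshold, 12 lost the call and 4 gained it, all of them for Cdc25c, Ncapg and Smc4. With each library left out in turn, members called ranged over 39 to 41 in DAPT against vehicle, 41 to 43 in DAPT + sErbB4 against sErbB4, 39 to 41 in sErbB4 against DAPT and 41 to 42 for the mean DAPT effect, and stayed at 0 in the 2 comparisons of sErbB4 and for the difference. The medians ranged over -1.29 to -1.16, -1.28 to -1.17, 1.06 to 1.12 and -1.27 to -1.21 in the same order, with the smallest fall in DAPT against vehicle without DAPT replicate 1 and the largest in DAPT + sErbB4 against sErbB4 without DAPT + sErbB4 replicate 3. A filter at a mean CPM of 5 left 22 members, of which 20, 22, 20 and 20 were called in the same order. With limma on log2(CPM + 2) the medians were -0.80, -0.72, 0.71 and -0.77, and on log2(CPM + 0.5) -1.09, -1.04, 1.00 and -1.09, since a pseudocount shrinks the fold change of low genes. With replicate number as a block, 41 and 42 members were called in DAPT against vehicle and DAPT + sErbB4 against sErbB4 (medians of -1.27 and -1.20), and 1750 and 1778 of all genes, against 1813 and 1832 without it, and no call of a member changed in either comparison. Depth limits Cdc25c in particular, listed at 0 in 1 library. Group sizes of 3 were too small for a check of outlying single values.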
